A study of Homo sapiens with 12 samples.

Results

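HEK293T cells that expressed the fusion protein VGLL2-NCOA2 were compared with HEK293T cells that received the empty vector. HEK293T is a line derived from human embryonic kidney and carries the SV40 large T antigen. All groups were transfected transiently with plasmid DNA, and the controls received pcDNA3.1. The comparison used the 3 VGLL2-NCOA2 libraries and the 3 control libraries of the 12 in the series, chosen by their labels alone, and covered 58735 genes joined by identifier. The 3 libraries of TEAD1-NCOA2, a related fusion, served only to ask whether a gene differed between the fusions. The labels do not say whether replicates were separate transfections, so p-values measure only how far these libraries differ, which may be technical. Transient transfection leaves a mixture of cells with and without plasmid, and fewer responding cells and a smaller response per cell cannot be told apart.

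TEAD proteins bind DNA through the TEA domain and need cofactors to activate transcription. YAP and TAZ, the effectors of the Hippo pathway, are such cofactors. The VGLL proteins also bind TEAD proteins, but not all of them activate transcription, and VGLL4 represses it. NCOA2 is a p160 coactivator that nuclear receptors recruit and that brings histone acetyltransferases to DNA. Fusions of VGLL2 with NCOA2 are known from spindle cell rhabdomyosarcoma of infants.

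The values were FPKM, fragments per kilobase of gene divided by a factor for library size. The 6 libraries held 14345840 to 15222480 fragments, recovered as whole numbers from the FPKM values. The mean correlation of a library with the others of its group was 0.947 for control replicate 3, 0.965 and 0.966 for the other controls, and 0.982 to 0.983 for VGLL2-NCOA2. Control replicate 3 was more than 2 times above both other controls in 730 tested genes, against 177 and 124 for replicates 1 and 2. The 6 markers of the HEK293T lineage summed to 63.5 to 74.1 FPKM in controls and 65.6 to 67.3 FPKM with the fusion, but the members moved apart. NES stood at 5.14 to 6.39 FPKM in controls and at 1.47 to 1.84 FPKM with the fusion, and PAX2 and KRT18 were also lower in all 3 fusion libraries. KRT8 stood at 11.7 to 14.8 FPKM and at 21.7 to 22.7 FPKM, and CDH2 was also higher in all 3. Of 5 endothelial markers 5 were below 1 FPKM in all 6 libraries, as were 5 of 6 leukocyte markers.

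Genes with 1 FPKM or more in 3 or more of the 6 libraries were tested, 14369 in all. A gene under 1 FPKM in every library of 1 group passed only through the other group, which could then only be higher. The fusion libraries held 14539 to 14578 genes at 1 FPKM or more, and the controls 13412 to 14354. Differences are on the log2(FPKM + 1) scale, which understates the change of low genes, with the standard error from limma and p-values adjusted by the Benjamini-Hochberg method over all tested genes. A gene is said to have risen or fallen only with an adjusted p under 0.05 and a difference over 1 in size. In all, 908 genes (6.32%) rose and 813 (5.66%) fell, and the numbers were 481 and 643 among 11594 protein-coding genes. At an adjusted p under 0.05 with no limit on size, 28.1% of genes were higher and 28.9% lower. Protein-coding genes that rose had a median level of 2.61 FPKM in controls and 7.66 FPKM with the fusion, and those that fell 25.7 and 9.88 FPKM.

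The split between increases and decreases depended on the filter and on the scale. With a minimum of 5 FPKM in place of 1 FPKM, 443 of 8338 genes rose and 676 fell. The sum of FPKM over all genes was 352968 to 450095 in controls and 256150 to 261017 with the fusion. On the TPM scale, where these sums are made equal, 4901 of 18558 genes that passed the filter there rose and 233 fell. Over the 14369 genes tested on both scales 3884 rose and 201 fell, and their median moved up by 0.57. Scaled to total fragments, an alternative chosen after seeing the data, 2674 rose and 542 fell, with a shift of 0.28. On the TPM scale 908 of the 908 increases were also called, and 198 of the 813 decreases. An upward shift favours calls of increases over calls of decreases, so these counts do not compare how firm each direction was. The decreases described here are therefore relative to the other genes on the deposited scale.

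The plasmid could be read in the libraries. VGLL2 stood at 1.13, 1.40 and 1.70 FPKM in controls and at 247, 253 and 269 FPKM with the fusion. NCOA2 stood at 1.53 to 2.59 FPKM and at 607 to 621 FPKM. CTGF, CYR61, ANKRD1 and AMOTL2, known targets of TEAD, rose by 5.81, 5.01, 4.84 and 2.71.

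TEAD factors are known to bind the letters GGAATG, which were searched on both strands of promoters. The sequences are from RefSeq (GRCh38.p14) and run from 250 bases before to 50 bases after the transcription start. CTGF (chr6:131951323-131951622, minus strand) and ANKRD1 (chr10:90921038-90921337, minus strand) are shown as TEAD genes with matches. AHNAK (chr11:62545777-62546076, minus strand) is shown because it held the one match among the 15 largest other increases. Capitals mark GGAATG or, for a match on the other strand, CATTCC.
CTGF: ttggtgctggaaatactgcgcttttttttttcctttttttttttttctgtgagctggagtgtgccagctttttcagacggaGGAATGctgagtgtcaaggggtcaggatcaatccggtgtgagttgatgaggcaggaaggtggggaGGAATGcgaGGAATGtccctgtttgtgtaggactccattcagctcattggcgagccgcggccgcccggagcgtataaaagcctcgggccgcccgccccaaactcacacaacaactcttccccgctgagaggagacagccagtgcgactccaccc
ANKRD1: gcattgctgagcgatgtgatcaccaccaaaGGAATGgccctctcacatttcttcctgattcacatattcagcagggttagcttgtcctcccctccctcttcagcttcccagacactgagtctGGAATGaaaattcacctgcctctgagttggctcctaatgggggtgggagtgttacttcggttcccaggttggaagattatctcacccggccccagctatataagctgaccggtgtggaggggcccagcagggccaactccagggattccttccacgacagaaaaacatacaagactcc
AHNAK: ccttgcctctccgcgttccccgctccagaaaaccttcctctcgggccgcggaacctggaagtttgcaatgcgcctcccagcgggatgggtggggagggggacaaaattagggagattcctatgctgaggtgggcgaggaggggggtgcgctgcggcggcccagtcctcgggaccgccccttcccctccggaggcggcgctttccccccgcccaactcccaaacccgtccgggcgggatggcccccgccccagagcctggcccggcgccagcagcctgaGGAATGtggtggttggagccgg
The CTGF promoter held 3 matches and the ANKRD1 promoter 2. Of the 15 largest other increases 13 could be matched to a promoter and 1 (7.69%) held the letters, against 2 of 13 (15.4%, DEPP1 and KRTAP19-1) among the 15 largest decreases. Of the 4 TEAD genes 3 could be matched and 2 held them. Among protein-coding genes that rose, 47 of 416 matched promoters (11.3%) held them, and among those that fell 54 of 505 (10.7%). The share was 10.4% over 9556 matched protein-coding genes tested and 14.0% over all 27305 promoters. A match is not a binding site, and sites outside this window were not searched.

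The 15 largest increases beyond those genes included cell surface and signalling genes. NCR3LG1, which encodes the natural killer receptor ligand B7-H6, stood at 1.97, 0.831 and 0.730 FPKM in controls and at 12.6, 12.2 and 11.8 FPKM with the fusion. It rose by 2.64 ± 0.21 (limma, adjusted p = 0.000336), and the groups were far apart. IRS4, an insulin receptor substrate, was already abundant in controls at 35.6, 23.6 and 27.7 FPKM. It reached 133, 135 and 135 FPKM and rose by 2.19 ± 0.14 (limma, adjusted p = 0.000271). CRIM1, a membrane protein that binds bone morphogenetic proteins, stood at 3.70, 2.76 and 2.97 FPKM and at 16.1, 16.8 and 15.6 FPKM. GPC5, a cell surface heparan sulfate proteoglycan, stood at 0.541 to 0.884 FPKM and at 5.22 to 5.83 FPKM, and passed the filter only through the fusion libraries. In each of these genes the fusion libraries lay close together. Groups without overlap were part of the rule that picked the largest increases and decreases. Over all tested genes the fusion libraries lay above every control in 32.9% and below every control in 33.5%.

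Other large increases were in nuclear and cytoskeletal genes. OGT, the enzyme that adds O-linked N-acetylglucosamine to nuclear and cytosolic proteins, stood at 26.8, 19.2 and 24.9 FPKM in controls and at 94.5, 96.7 and 99.3 FPKM with the fusion. It rose by 2.0 ± 0.13 (limma, adjusted p = 0.000237). DDX17, an RNA helicase, stood at 39.5 to 52.8 FPKM and at 179 to 187 FPKM. BTAF1, an ATPase that removes the TATA-binding protein from DNA, rose by 1.97, and NKTR, a cyclophilin-related protein, by 2.19. ASPM, a protein of the spindle pole, rose by 1.94 and AHNAK, a very large scaffold protein, by 2.15. Groups without overlap were a condition for naming these genes.

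The rest of the 15 were low in controls. RAB39A, a RAB GTPase, stood at 0.487, 0.175 and 1.59 FPKM in controls and at 8.39, 8.29 and 8.70 FPKM with the fusion. KLHL11, a Kelch protein, rose by 2.36. POMK, a kinase that modifies the sugar chain of dystroglycan, rose by 2.30 and AASS, which starts lysine breakdown, by 2.01. HIST1H2BO, a histone H2B gene with near-identical copies, stood at 0.195, 1.47 and 0 FPKM in controls and at 6.05, 7.04 and 3.73 FPKM with the fusion. All 15 increases passed the call under every alternative that could be run.

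**Figure D1:**
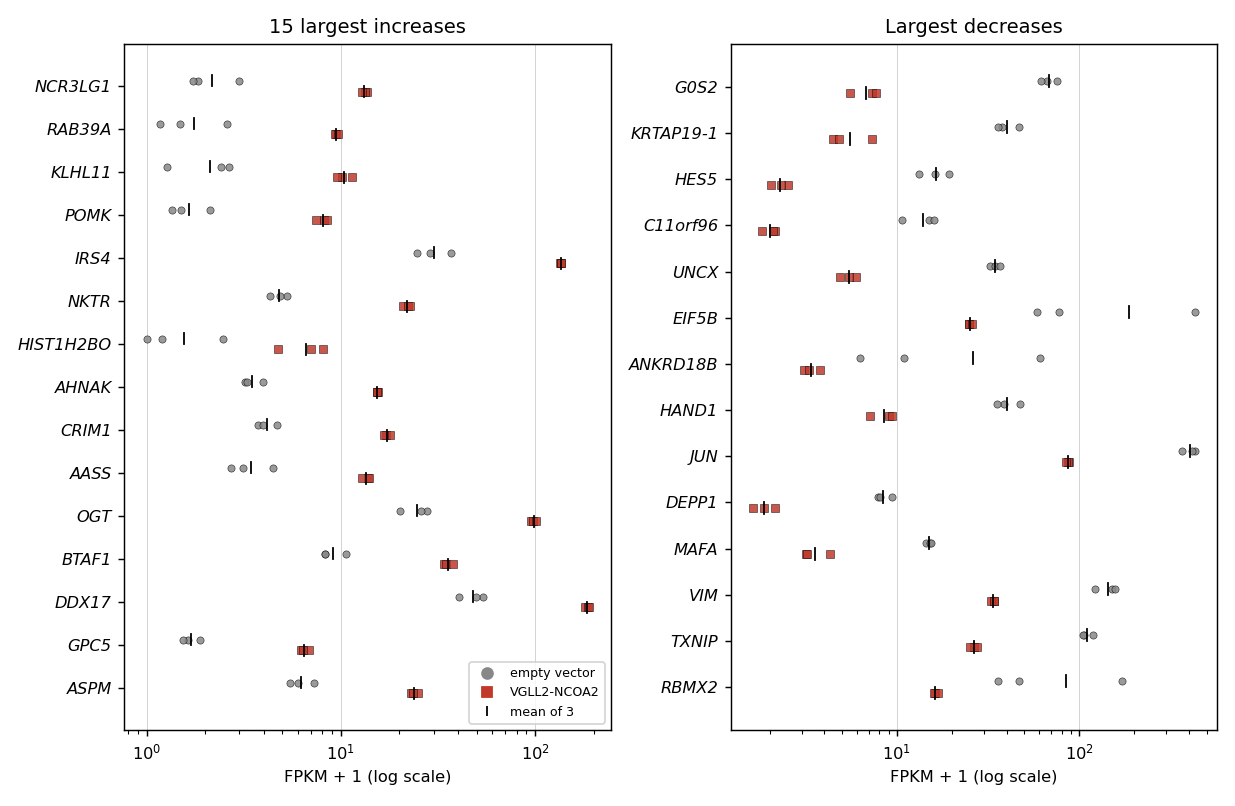
Levels of the 15 largest increases (left) and of the largest decreases named in the text (right) among protein-coding genes, with FPKM + 1 on a log axis. Each point is 1 library, grey circles are empty vector, red squares are VGLL2-NCOA2 and black ticks are means of 3. The groups do not overlap in any gene, which the rule for naming them required. EIF5B, ANKRD18B and RBMX2 have control replicate 3 far above the other controls.

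G0S2, which encodes an inhibitor of the lipase of fat droplets, was the largest decrease. It stood at 65.7, 75.0 and 60.9 FPKM in controls and at 6.28, 4.50 and 6.63 FPKM with the fusion, and fell by 3.33 ± 0.15 (limma, adjusted p = 0.000141). VIM, the intermediate filament of mesenchymal cells, stood at 121, 151 and 156 FPKM and at 33.3, 31.8 and 33.3 FPKM. It fell by 2.08. TXNIP, an inhibitor of thioredoxin and of glucose uptake, stood at 106, 105 and 118 FPKM and at 25.3, 24.0 and 26.6 FPKM, and fell by 2.06. All of these genes were abundant in controls, and their groups were far apart.

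Transcription factors of development and of the immediate early response were among the 15. JUN, a subunit of AP-1, stood at 433, 416 and 366 FPKM in controls and at 87.1, 85.5 and 83.9 FPKM with the fusion. It fell by 2.23 ± 0.09 (limma, adjusted p = 0.000141). HES5, a repressor that Notch signals induce, stood at 12.2, 15.2 and 18.4 FPKM and at 1.52, 1.31 and 1.04 FPKM. UNCX, a homeobox factor, stood at 31.6, 33.4 and 35.7 FPKM and at 4.97, 4.46 and 3.89 FPKM. HAND1, a basic helix-loop-helix factor of the heart, fell by 2.24 and MAFA, a bZIP factor of the beta cell, by 2.10. KRTAP19-1, a keratin-associated protein, fell by 2.88, DEPP1, a target of FOXO factors, by 2.17 and C11orf96 by 2.76. That no library of one group reached into the other was a condition for naming these genes.

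Control replicate 3 set much of the size of 3 of the 15 decreases. EIF5B, a factor of ribosome assembly at the start codon, stood at 57.4, 76.6 and 430 FPKM in controls and at 23.9, 24.0 and 25.0 FPKM with the fusion. It fell by 2.31 ± 0.70 (limma, adjusted p = 0.0289), and by 1.41 without control replicate 3. ANKRD18B stood at 5.29, 9.87 and 60.2 FPKM in controls and fell by 2.25, and by 1.29 without that library. RBMX2, a splicing protein, stood at 34.6, 45.9 and 171 FPKM in controls and fell by 2.02, and by 1.33 without it. All 3 calls held without control replicate 3, were lost when any one of the fusion libraries was left out, and for ANKRD18B also without control replicate 2. The other decreases named among the 15 passed the call under every alternative that could be run.

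Of 12 tested TEAD targets other than the 4 above, 3 (25%) rose and 1 (8.33%) fell, where 6.32% of all genes rose and 5.66% fell. The list had a median difference of 0.50 against -0.02 over all genes. CRIM1 was the largest. LATS2, a kinase that inhibits YAP, stood at 2.0, 1.80 and 1.40 FPKM in controls and at 6.87, 6.51 and 6.93 FPKM with the fusion, and rose by 1.51 ± 0.11. NUAK2, a kinase of actin stress fibres, rose by 1.13, a call lost without control replicate 3 (0.99) and under quantile normalization (0.89). FOXF2, a forkhead factor, stood at 22.1 to 22.3 FPKM and at 9.19 to 9.92 FPKM, and fell by 1.15. Its difference was -0.56 after correction for gene length and GC content.

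Of 22 Hippo kinases and regulators 5 (22.7%) rose and none fell, where 6.32% of all genes rose. The list median was 0.47. After correction for length and GC content 2 rose and the median was 0.22. WWC2, an activator of LATS kinases, stood at 2.83, 1.95 and 2.32 FPKM in controls and at 10.6, 11.6 and 11.5 FPKM with the fusion. FAT1, a giant cadherin, rose by 1.49 and TAOK1, a kinase upstream of the Hippo kinases, by 1.22. Among the factors themselves TEAD1 rose by 1.59 ± 0.08, while the differences were -0.58 for TEAD2, 0.01 for TEAD3 and -0.54 for TEAD4. YAP1 and WWTR1, the genes of YAP and TAZ, differed by 0.42 and 0.25 and were not called.

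Of 21 histone methyltransferases 5 (23.8%) rose and none fell (median 0.58), where 6.32% of all genes rose. Of 24 chromatin remodellers 2 (8.33%) rose, a share near that of all genes, and none fell (median 0.59). ASH1L, a methyltransferase of histone H3, stood at 2.62, 2.04 and 2.68 FPKM in controls and at 7.44, 8.31 and 8.05 FPKM with the fusion. KMT2C rose by 1.28, SETD2 by 1.19 and CHD6, a remodeller, by 1.37. After correction for length and GC content the medians were 0.43 and 0.27 and no member of either list rose, with ASH1L at 0.84 and CHD6 at 0.91. Of 12 p160 coactivators and acetyltransferases, NCOA2 left out, NCOA3 and KAT6A rose by 1.12 and 1.13. EP300, which encodes the acetyltransferase p300, differed by 0.83 and was not called. The median of that list, 0.24, became -0.04 after the correction.

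Of 28 cohesin, condensin and DNA repair genes 6 (21.4%) rose and none fell (median 0.52), where 6.32% of all genes rose. At an adjusted p under 0.05, 23 of them were higher, as were 28.1% of all genes. After correction for length and GC content the median was 0.21 and 2 genes rose. WRN, a helicase, rose by 1.26 and ATM, a kinase of the response to DNA breaks, by 1.26. Of 36 kinesins 4 (11.1%) rose and none fell (median 0.46, and 0.32 after the correction). The largest increase was that of KIF14, which acts in cytokinesis, at 3.09 to 4.24 FPKM in controls and 12.8 to 13.2 FPKM with the fusion. CEP295, a centriole protein, rose by 1.77. It was one of 2 genes called among 62 of the centrosome and cilium, a share of 3.23% that is below the 6.32% of all genes. The median of that list was 0.38, and 0.07 after the correction.

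The mitosis list had a median of 0.05, and 4 of 31 genes (12.9%) rose, where 6.32% of all genes rose. MKI67, the source of the Ki-67 antigen, rose by 1.41, CENPE by 1.34 and CENPF by 1.31. After correction for length and GC content 2 of the 4 calls remained, and those of CENPE (0.82) and CENPF (0.74) were lost. CDK1, CCNB1 and PLK1, which drive entry into mitosis, differed by -0.29, 0.12 and -0.27. Of 37 DNA replication genes none rose and 1 (2.70%) fell, a share below the 5.66% of all genes. At an adjusted p under 0.05, 18 were lower and 5 higher, where 28.9% of all genes were lower and 28.1% higher. The list median was -0.21, and became 0.12 under quantile normalization. The gene that fell was CDT1, which licenses replication origins, at 241, 304 and 285 FPKM in controls and 78.1, 72.8 and 72.4 FPKM with the fusion.

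Of 29 tested collagens and laminins 4 (13.8%) rose and none fell (median 0.37), where 6.32% of all genes rose. After correction for length and GC content 2 of the list rose (median 0.25). COL12A1 was close to absent in controls, at 0.119, 0.0704 and 0.0657 FPKM, and reached 2.39, 2.25 and 2.42 FPKM with the fusion. COL12A1 passed the filter only through the fusion libraries, so it could be counted only as an increase. SPARC, a collagen-binding protein, stood at 1.31, 1.11 and 0.895 FPKM and at 5.99, 5.42 and 5.93 FPKM, and rose by 1.69 ± 0.11 (limma, adjusted p = 0.000246). SPARC was one of 3 genes that rose among 21 of matricellular and matrix-binding proteins (14.3%, median 0.13), and none fell. At an adjusted p under 0.05, 7 of these genes were higher and 6 lower. ITGAV, the alpha V integrin, rose by 1.49 and was the only gene called among 16 tested integrins (6.25%, median 0.002). LAMA3, a laminin chain, rose by 1.40. The 7 fibroblast markers summed to 7.32 to 11.3 FPKM in controls and 5.63 to 7.18 FPKM with the fusion, with 5 of the 7 below 1 FPKM in all 6 libraries and COL1A2 at 0. COL1A1 made up most of the sum, at 6.64 to 10.4 FPKM and at 3.97 to 5.04 FPKM. COL3A1 went the other way, at 0.328 to 0.469 FPKM and at 1.0 to 1.38 FPKM, and so did LUM, at 0.0988 to 0.347 FPKM and at 0.486 to 0.534 FPKM. The part of fibroblast-like cells in these values was not tested.

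Of 15 tested interferon response genes 2 (13.3%) rose and none fell, where 6.32% of all genes rose. The list median was 0.55, and 0.73 after correction for length and GC content. IFIT1, an interferon-induced protein that binds foreign RNA, stood at 0.886, 0.692 and 0.663 FPKM and at 3.73, 4.0 and 4.71 FPKM. It rose by 1.56 ± 0.12, but passed the filter only through the fusion libraries and so could be counted only as an increase. ISG15, a ubiquitin-like protein, differed by 0.18 and was not called. Of 24 tested cholesterol synthesis genes 2 (8.33%) rose and none fell, with a median of -0.10. At an adjusted p under 0.05, 8 were higher and 9 lower. HMGCS1 rose by 1.17 and CYP51A1 by 1.16, the latter a call lost without control replicate 3 (0.96) and under quantile normalization (0.89).

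Over all tested genes 5.66% fell, and 28.9% were lower at an adjusted p under 0.05. Of 85 tested cytosolic ribosomal protein genes 25 (29.4%) fell and none rose, and 70 were lower at that threshold. Their median was -0.86, and it was -0.73 after correction for length and GC content, -0.26 on the TPM scale and -0.13 under quantile normalization. All genes tested had a median of 0.56 on the TPM scale. Relative to all genes the list stood at -0.81 there and at -0.84 on the deposited scale. RPLP0, a protein of the ribosomal stalk, stood at 926, 1160 and 1002 FPKM in controls and at 404, 393 and 402 FPKM with the fusion. RPL13 fell by 1.65 ± 0.13 and RPL26 by 1.68 ± 0.12. These genes have processed pseudogenes with which reads may be shared. Together the genes took 10.7%, 11.8% and 8.50% of all fragments in controls and 6.30%, 6.37% and 6.40% with the fusion. The groups did not overlap, and an exact permutation test (2-sided) gave p = 0.1, the smallest that 3 against 3 libraries allow.

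The mitochondrial chromosome took 10.8%, 12.6% and 9.97% of fragments in controls and 6.18%, 6.43% and 6.56% with the fusion (exact permutation test, p = 0.1). Of its 13 protein-coding genes 3 (23.1%) fell and none rose, where 5.66% of all genes fell. The median of the 13 was -0.89 and became 0.20 under quantile normalization. MT-ND6, a subunit of complex I, stood at 6773, 9857 and 6776 FPKM in controls and at 2058, 2312 and 2333 FPKM with the fusion. Among 77 mitochondrial ribosomal proteins 6 (7.79%) fell (median -0.57), and 2 after correction for length and GC content. Among 77 nuclear genes of the respiratory chain 3 fell, a share of 3.90% that is below the 5.66% of all genes, and the median was -0.46 and -0.08 under quantile normalization. The medians of these lists were 0.02 and 0.14 on the TPM scale, where the median of all genes tested was 0.56. UQCRC1, a core protein of complex III, fell by 1.65.

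Of 24 genes of glycolysis and glucose 5 (20.8%) fell and none rose, where 5.66% of all genes fell. The list median was -0.49. It was 0.12 on the TPM scale, where the median of all genes tested was 0.56. Relative to all genes the list stood at -0.47 on the deposited scale and at -0.44 on the TPM scale. GAPDH stood at 779, 1023 and 866 FPKM in controls and at 355, 348 and 356 FPKM with the fusion and fell by 1.32, but was not called on the TPM scale (-0.71) or under quantile normalization (-0.42). TXNIP and ARRDC4, related arrestins that respond to glucose, fell by 2.06 and 1.26, and ENO1 and LDHB, enzymes of glycolysis, by 1.19 and 1.26.

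Of 26 genes of the ATF4 response, the program of amino acid shortage, 6 (23.1%) fell and 1 (3.85%) rose. Over all tested genes 5.66% fell and 6.32% rose. The list median was -0.51. It was 0.03 on the TPM scale, where the median of all genes tested was 0.56. Relative to all genes the list stood at -0.49 on the deposited scale and at -0.53 on the TPM scale. TRIB3, a pseudokinase, stood at 35.1, 42.2 and 37.5 FPKM and at 10.2, 8.78 and 7.98 FPKM. DDIT4, an inhibitor of mTORC1, fell by 1.52, CHAC1 by 1.41, CEBPB by 1.39, PHGDH by 1.29 and DDIT3 by 1.15. ASNS, asparagine synthetase, was the member that rose, by 1.07.

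**Figure D2:**
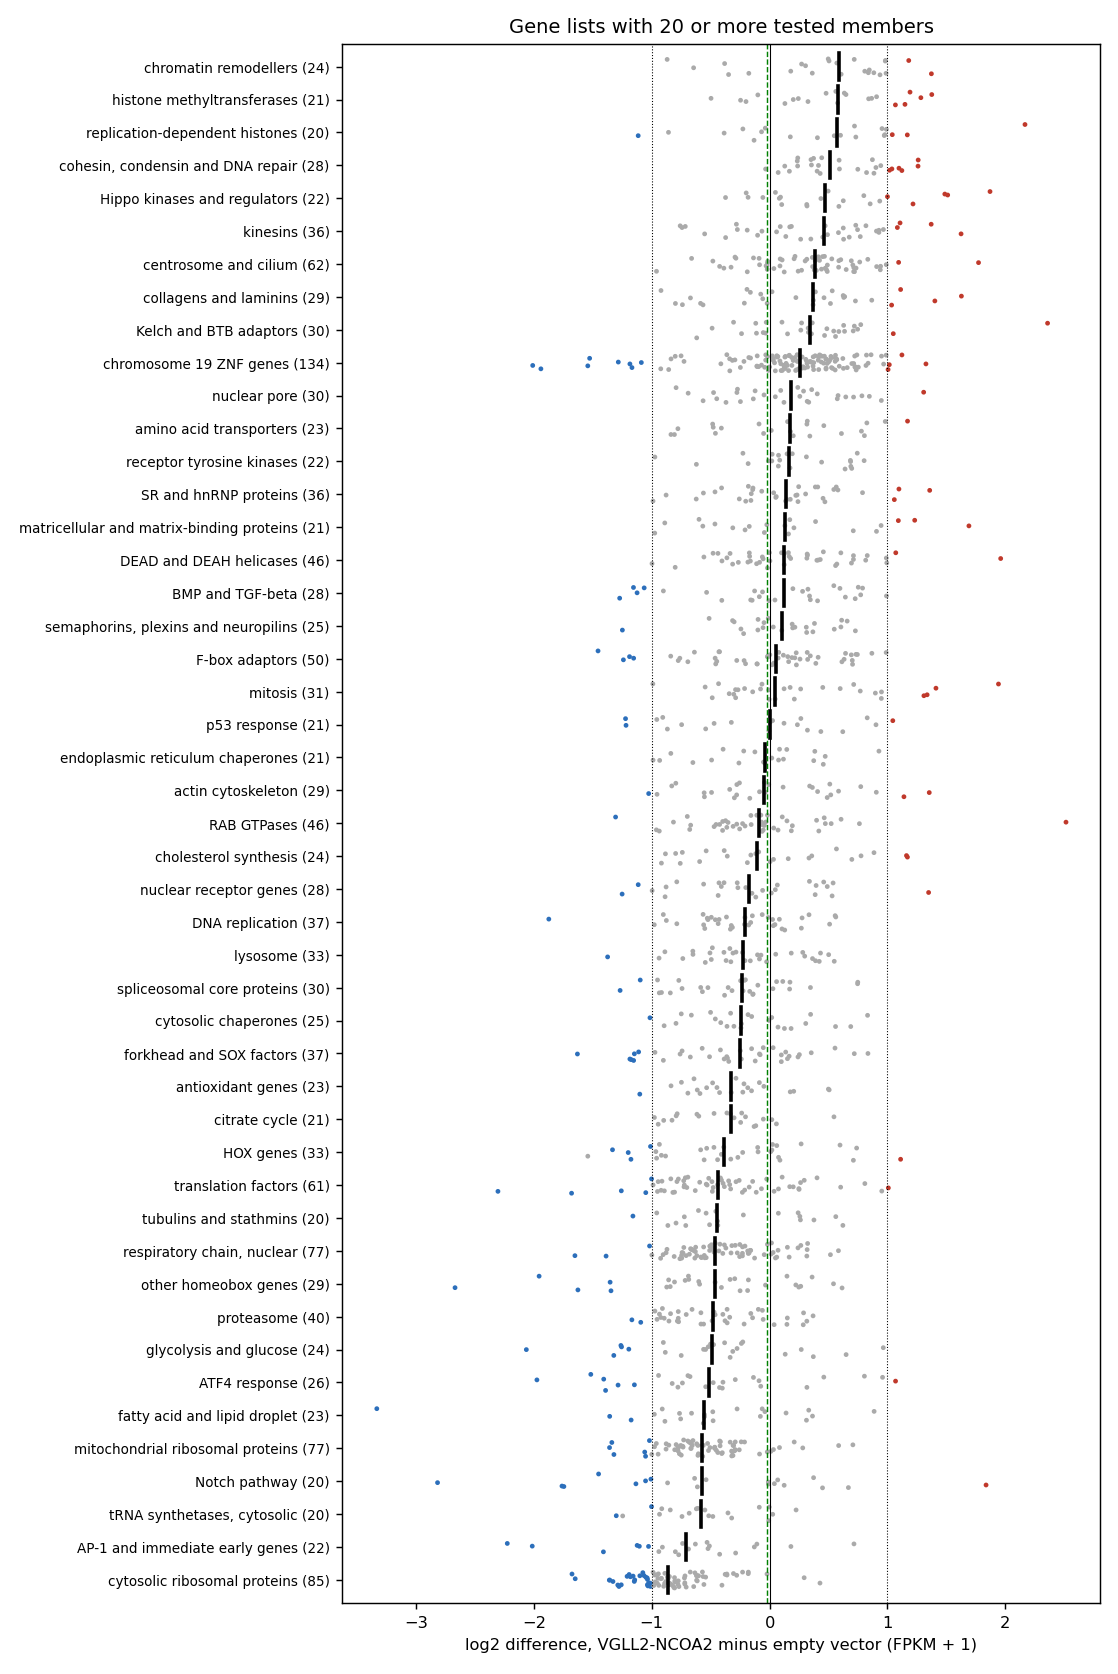
Log2 difference of each tested member (points) in the gene lists with 20 or more tested members, with the number tested in brackets. Red points rose, blue points fell, grey points were not called, black bars are list medians and the green dashed line is the median of all genes at -0.02. The lists run from cytosolic ribosomal proteins at -0.86 to chromatin remodellers at 0.59 on the deposited scale. Several negative medians turn positive on the TPM scale, where all genes have a median of 0.56.

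Of 22 AP-1 and immediate early genes 6 (27.3%) fell and none rose, where 5.66% of all genes fell. The list median was -0.71, and it was -0.47 after correction for length and GC content and -0.18 on the TPM scale. Relative to all genes the list stood at -0.69 on the deposited scale and at -0.74 on the TPM scale. JUND stood at 94.9, 105 and 102 FPKM in controls and at 25.8, 24.6 and 22.1 FPKM with the fusion. EGR1 fell by 1.41, and by 1.11 without control replicate 3, MAF by 1.12 and KLF2 by 1.11. JUNB and FOS differed by -0.94 and -0.74, FOSL2 by 0.72, and none of these was called.

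In the Notch list 7 of 20 genes (35%) fell and 1 (5%) rose, where 5.66% of all genes fell and 6.32% rose. HES1 stood at 39.7, 43.9 and 58.8 FPKM in controls and at 13.7, 12.3 and 13.8 FPKM with the fusion. HEY1 stood at 114, 115 and 141 FPKM and at 35.7, 36.4 and 34.3 FPKM. These repressors are targets of Notch, as are HES5, HES7 and HEY2, which fell by 2.82, 1.13 and 1.45. NOTCH2, a receptor, rose by 1.84 ± 0.10 from 3.49 to 4.59 FPKM to 16.7 to 18.1 FPKM, while NOTCH1 and NOTCH3 differed by 0.04 and 0.07 and were not called. The median of the list, -0.58, became 0.08 after correction for length and GC content.

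By the family names in the deposited tables, 12 of 54 bHLH factors (22.2%) fell and none rose. Of 118 homeobox factors 16 (13.6%) fell and 2 (1.69%) rose, and of 27 forkhead factors 5 (18.5%) fell and none rose. Over all tested genes 5.66% fell and 6.32% rose. The family medians were -0.54, -0.41 and -0.15, and -0.24, -0.16 and -0.03 after correction for length and GC content. On the TPM scale the medians of the lists were 0.13 for HOX genes, -0.08 for other homeobox genes, -0.16 for basic helix-loop-helix factors and 0.20 for forkhead and SOX factors. All genes tested had a median of 0.56 on that scale. SIX2, a factor of kidney progenitors, stood at 21.8, 25.7 and 23.4 FPKM in controls and at 7.63, 7.05 and 6.27 FPKM with the fusion. MSX1, a homeobox factor, stood at 31.1, 44.1 and 112 FPKM and at 13.1 to 13.2 FPKM, and fell by 1.96, or by 1.43 without control replicate 3. HOXB9, HOXB7 and HOXB2 fell by 1.33, 1.20 and 1.18, and their calls were lost on the TPM scale (-0.74, -0.71 and -0.75). Those of HOXB9 and HOXB2 were also lost after correction for length and GC content (-0.99 and -0.79), and that of HOXB9 under quantile normalization (-0.83). HOXA6 rose by 1.11, a call lost without control replicate 2, without control replicate 3 (0.76) or without fusion replicate 1 or 2. SOX4 fell by 1.63. The 401 zinc finger factors of the C2H2 family had 26 increases (6.48%) and 20 decreases (4.99%), shares near those of all genes, and a median of 0.23. ID1, ID2 and ID3, inhibitors of bHLH factors that BMP signals induce, fell by 1.12, 1.06 and 1.16, and their calls were lost on the TPM scale and after the correction.

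Few genes of skeletal muscle could be tested. Of 30 listed, 7 passed the filter and 1 fell, TNNT1, a slow troponin, by 1.11. That call was lost without control replicate 2 (-0.93), under quantile normalization (-0.90), scaled to total fragments (-0.89) and on the TPM scale (-0.55). It was also lost after correction for length and GC content (-0.66). MYOD1, the myogenic master factor, stood at 2.64, 3.50 and 2.65 FPKM in controls and at 1.17, 1.08 and 1.06 FPKM with the fusion and was not called at a difference of -0.89. ACTA1, skeletal actin, differed by 0.85 and was not called. MYOG, the gene of myogenin, was listed at 0 in all 6 libraries. Of 13 tested neuronal structure genes 3 (23.1%) fell and none rose (median -0.26), where 5.66% of all genes fell. Among them NEFL and NEFM, neurofilament proteins, fell by 1.39 and 1.14. Both calls were lost on the TPM scale (-0.83 and -0.55). That of NEFM was also lost under quantile normalization (-0.65), after correction for length and GC content (-0.89) and scaled to total fragments (-0.88).

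Long noncoding genes held 1.06%, 0.967% and 1.40% of fragments in controls and 2.17%, 2.21% and 2.19% with the fusion (exact permutation test, p = 0.1). Of 679 antisense genes 70 (10.3%) rose and 14 (2.06%) fell, and of 496 lincRNA genes 46 (9.27%) rose and 25 (5.04%) fell. Of 176 transcribed unprocessed pseudogenes 39 (22.2%) rose and none fell. Over all tested genes 6.32% rose and 5.66% fell. A gene under 1 FPKM in every control passed the filter only through the fusion libraries and could only be higher. How many of these genes did so was not counted. The strand setting was not stated, so antisense reads may come from the partner gene. The largest increase was AC002064.2, at 0.257, 0 and 0 FPKM in controls and 5.76, 9.49 and 2.78 FPKM with the fusion. AC108010.1 stood at 0.515 to 0.721 FPKM and at 7.59 to 8.56 FPKM. Both AC002064.2 and AC108010.1 passed the filter only through the fusion libraries. AC245060.2 and AC138393.3 rose by 2.45 and 2.31. Among decreases AC019080.3 stood at 2.34, 4.50 and 26.9 FPKM in controls and fell by 2.38, or by 1.48 without control replicate 3. AC034102.5 and Z93241.1 fell by 2.19 and 2.10, or by 1.23 and 1.39 without it. The calls of these 3 genes were lost when any one of the fusion libraries was left out, those of AC019080.3 and Z93241.1 also without control replicate 2, and that of AC034102.5 also after correction for length and GC content. AC034102.5 and Z93241.1 passed the filter only through the controls. AL139246.5 stood at 12.6, 14.7 and 15.1 FPKM in controls and at 2.88, 2.51 and 2.26 FPKM with the fusion.

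Genes that rose and genes that fell had different median structure. Protein-coding genes that rose had a median length of 8627 bases, a GC content of 41.8% and 16 exons. Those that fell had 2623 bases, 61.1% and 5 exons, and all tested genes had 5105 bases, 48.6% and 8 exons. With genes cut into 5 equal groups, 33 rose and 381 fell in the shortest group, and 260 rose and 11 fell in the longest. In the group with the lowest GC content 200 rose and 13 fell, and in the highest 16 rose and 402 fell. Across genes, which are not independent replicates, Spearman's rho of the difference was 0.50 with length and -0.487 with GC content. It was -0.514 with the control level, and -0.403 after the correction, but the control values enter both sides of that relation. Chromosome 19 had 19 increases and 152 decreases among 970 genes (median -0.43, and -0.15 after the correction). The part of library preparation and RNA quality in these trends was not tested.

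**Figure D3:**
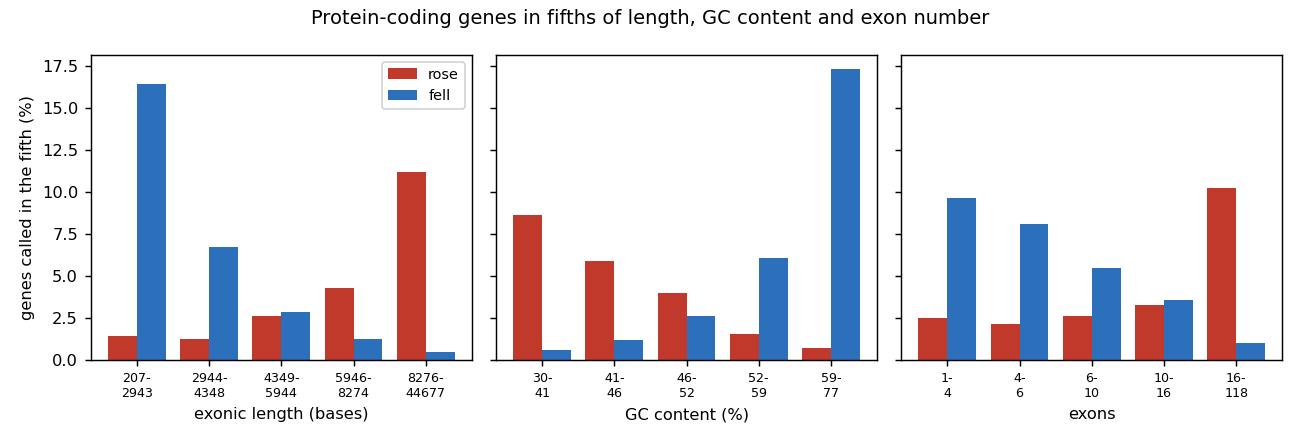
Share of protein-coding genes called in each of 5 equal groups by exonic length in bases, GC content in percent and exon number, with red bars for genes that rose and blue bars for genes that fell. Increases reach 11.2% in the longest group and decreases 17.3% in the group with the highest GC content.

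The correction reduced the trends, to a Spearman's rho of 0.121 with length, -0.0695 with GC content and 0.199 with exon number. It left 631 increases and 404 decreases, of which 487 and 289 were also called without it. Differences that kept their call included JUN (-1.85), JUND (-1.22), HES1 (-1.55), HEY1 (-1.61), LATS2 (1.58) and WWC2 (1.40). Calls that were lost included FAT1 (0.98), TAOK1 (0.55), KMT2C (0.71), ATM (0.57) and GAPDH (-0.88). Of the 908 increases 331 passed the call in every alternative that could be run, and of the 813 decreases 124. The alternatives include the TPM scale and total fragments, whose upward shifts favour increases, so these counts do not compare the directions.

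VGLL2-NCOA2 and TEAD1-NCOA2 share the NCOA2 part, and their libraries were compared directly in a fit that held the controls. The plasmid sequence itself differed, with NCOA2 at 607 to 621 FPKM with VGLL2-NCOA2 and at 246 to 279 FPKM with TEAD1-NCOA2, a difference of 1.24 ± 0.12 (limma, adjusted p = 0.000416). CTGF, CYR61 and ANKRD1 were higher with VGLL2-NCOA2 by 1.15, 1.78 and 2.27. The part of the plasmid level in the differences between the fusions was not tested. Of 14865 genes 267 (1.80%) were higher and 68 (0.457%) lower with VGLL2-NCOA2. Both fusions shared the same controls, and the genes named here were chosen after their values were seen. SPARC stood at 5.42 to 5.99 FPKM with VGLL2-NCOA2 and at 0.450, 0.671 and 0.608 FPKM with TEAD1-NCOA2, a difference of 2.11 ± 0.11 (limma, adjusted p = 1.82e-05). IFIT1 was higher with VGLL2-NCOA2 by 1.66 and ESRP2, a splicing factor of epithelial cells, by 1.02. TXNIP stood at 24.0 to 26.6 FPKM with VGLL2-NCOA2 and at 6.16, 7.54 and 6.72 FPKM with TEAD1-NCOA2. ID1, ID2, NEFM, SEMA6B and FBXL16 were likewise higher with VGLL2-NCOA2, by 1.41, 1.23, 1.41, 1.66 and 2.0.

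Other genes were lower with VGLL2-NCOA2. SNAI2, the repressor of epithelial genes known as Slug, stood at 3.77, 3.74 and 3.98 FPKM in controls, at 1.75, 1.10 and 1.0 FPKM with VGLL2-NCOA2 and at 9.69, 11.1 and 10.1 FPKM with TEAD1-NCOA2. CDKN1A, the cell cycle inhibitor p21, stood at 24.3 to 33.9 FPKM in controls, at 11.4 to 12.4 FPKM with VGLL2-NCOA2 and at 40.9 to 41.7 FPKM with TEAD1-NCOA2. In both genes the fusions lay on opposite sides of the controls. The differences between the fusions were -1.29 for TRIB3, -1.06 for JUN and -1.05 for VIM. No difference was called for IRS4 (0.22 ± 0.16, adjusted p = 0.344 in limma), OGT (0.39 ± 0.15), HES5 (0.24 ± 0.15) or SOX4 (0.08 ± 0.20), which does not show that they were equal.

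**Figure D4:**
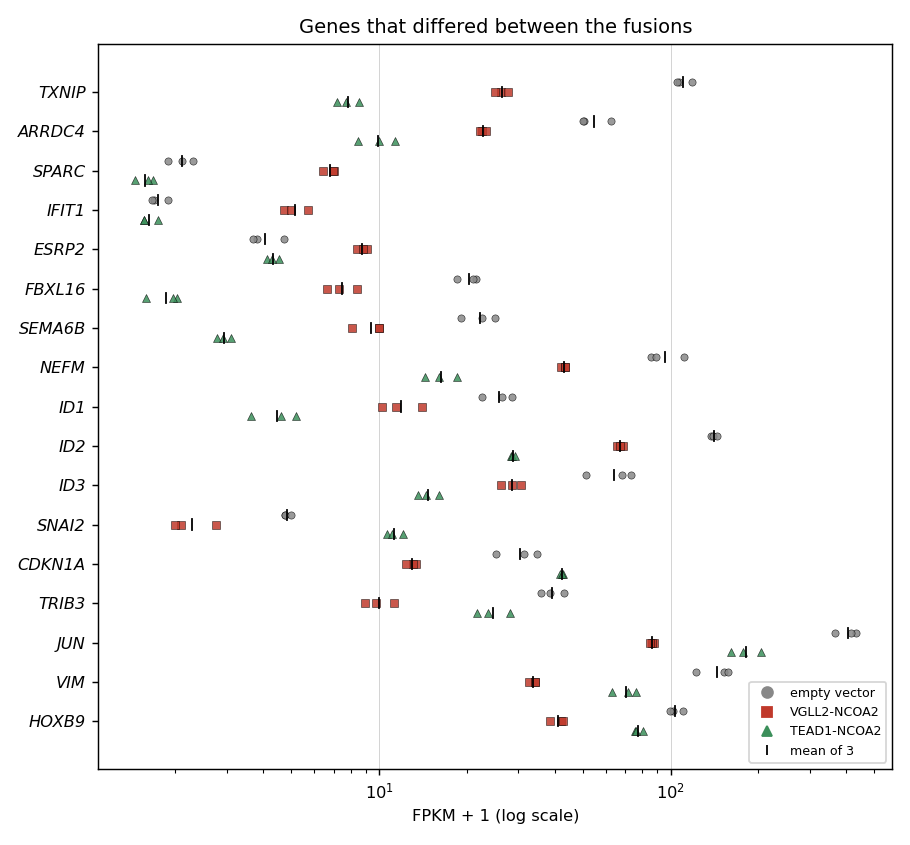
Levels of genes in the empty vector (grey circles), VGLL2-NCOA2 (red squares) and TEAD1-NCOA2 (green triangles) libraries, with FPKM + 1 on a log axis and black ticks for means of 3. The genes were chosen after their values were seen. SPARC lies at 5.42 to 5.99 FPKM with VGLL2-NCOA2 and below 1 FPKM with TEAD1-NCOA2, and SNAI2 lies above the controls with TEAD1-NCOA2 and below them with VGLL2-NCOA2.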

How the data were processed

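The authors deposited 1 table per plasmid with the FPKM of every gene in each library, its length and its biotype. The aligner, counting tool, strand setting and FPKM divisor were not stated, and the tables may have been normalized separately. The submitters' notes name mouse builds, but all 58735 identifiers and coordinates matched GENCODE release 29 of the human genome. FPKM times length came out whole within 0.05 fragments for 100% of values of up to 20 fragments in the 9 libraries used. In an alternative, limma-voom on these fragments called 1621 increases and 1209 decreases.

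The log2(FPKM + 1) values of the 6 libraries were fitted with limma 3.58.1 (R 4.3.3; trended eBayes, no replicate block) after a filter of 1 FPKM in 3 libraries. The fit was tested on simulated data. The direct comparison used 9 libraries. The length and GC correction used splines with 4 degrees of freedom. Named genes were the 15 largest increases and decreases among called protein-coding genes with a mean of 5 FPKM in the higher group and no overlap, the 4 largest each way among long noncoding genes, and up to 4 called members per list. Other members are named to describe a list, and their alternatives were not run gene by gene. Some genes meeting the rules are left out. Members and lists were chosen with earlier results of these data known. The YAP5SA table entered 1 alternative.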

Additional observations from a re-analysis of the deposited data

How the results depend on the processing

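Against empty vector there were 908 increases and 813 decreases. These became 1537 and 1172 with a pseudocount of 0.1 FPKM, and 1621 and 1209 with limma-voom on recovered fragments. With a minimum of 5 FPKM there were 443 increases and 676 decreases among 8338 genes, so decreases outnumbered increases there. The TPM scale gave 4901 increases and 233 decreases, and scaling to total fragments, chosen after seeing the data, gave 2674 increases. Length and GC correction gave 404 decreases, and 423 together with the replicate block. Leaving out 1 library gave 829 to 1049 increases and 660 to 953 decreases. Against TEAD1-NCOA2, 267 higher and 68 lower genes became 173 and 115 under quantile normalization and 142 and 112 under length and GC correction. Replicate numbers did not pair the libraries (correlations of 0.01 to 0.04), and the replicate block gave 926 increases and 837 decreases, 905 and 810 of them shared with the fit without it. Of 191 named genes that were called, none reversed under any alternative. Of 201 named genes 93 lost the call under length and GC correction, 67 on the TPM scale and 55 under quantile normalization. Of 66 lists 44 kept the sign of their median, taken relative to the median of all genes, in every alternative. With 3 libraries a group and a divisor that did not follow the fragment totals, a uniform shift between the groups cannot be told apart from a change of scale.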
